A study of Homo sapiens with 6 samples.

Results

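The AP-1 transcription factors described here are 10 genes: FOS, FOSB, FOSL1, FOSL2, JUN, JUNB, JUND, ATF2, ATF3 and BATF3. Every probe set annotated to 1 of them and to no other gene was taken, which gave 24 of the 54675 probe sets on the array and 10 of the 19777 genes measured by at least 1 such probe set. A probe set is a group of short oligonucleotides on the array that reads the transcripts of a gene. The study measured mRNA on 6 arrays, 3 from cells transfected with an siRNA against ING2 and 3 from cells transfected with a non-targeting control siRNA. All 6 came from MDA-MB-231, a cultured human breast cancer line of mesenchymal type with no estrogen receptor. The labels name 1 siRNA against ING2 and leave unsaid whether the replicates were grown separately. The p-values therefore reflect only the spread between these samples, and that spread may be technical. With 1 siRNA against ING2, effects of ING2 loss and other effects of that siRNA cannot be told apart. RNA collection is given as 4 days after transfection in one field of the labels and 3 days in another.

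AP-1 is a dimer of proteins that share a basic region, which contacts DNA, and a leucine zipper, which joins the partners. JUN proteins pair with themselves, with FOS proteins and with ATF proteins, while FOS proteins need a JUN partner. Growth factors and stress raise AP-1 through MAP kinases, which induce the genes and phosphorylate the proteins. In basal-like and mesenchymal breast cancer cells FOSL1, whose protein is also called FRA-1, is the FOS family member best known for a part in invasion. ING2, the depleted gene, encodes a PHD finger protein that brings a SIN3 histone deacetylase complex to trimethylated lysine 4 of histone H3.

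FOS-JUN dimers favour the letters TGACTCA, ATF2 dimers favour TGACGTCA, and the JUN promoter carries the related TGACATCA, which JUN-ATF2 binds. These letters were searched on both strands from 250 bases before to 50 bases after each start site in RefSeq, build GRCh38.p14. By symbol 7 of the 10 members matched the table (not FOSL1, ATF2 and BATF3), with 8 promoters, since ATF3 has more than 1 start. The 4 matches are shown because they hold the family's recognition letters in promoters of its own members. Each is 30 bases, 5′ to 3′ on the gene's strand, with the motif in capitals.
JUN, chr1:58784096-58784125, minus strand: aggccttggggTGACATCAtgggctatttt
ATF3, chr1:212565273-212565302, plus strand: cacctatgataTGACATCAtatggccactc
FOSL2, chr2:28392851-28392880, plus strand: tgccattgtagTGACTCAtctcgggcagag
JUND, chr19:18281804-18281833, minus strand: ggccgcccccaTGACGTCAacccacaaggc
The motif began 67 bases before the start site in JUN, 123 before it in ATF3 and 200 before it in JUND, and at base 5 of the transcript in FOSL2. Of all 35116 promoters in the table, 4.95% held TGACTCA, 1.85% held TGACGTCA and 2.61% held TGACATCA. A match describes these letters and does not show that a factor binds there.

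ING2 itself was read at 163, 188 and 161 intensity units after ING2 siRNA, against 1400, 1349 and 1324 units in controls, at probe set 205981_s_at. It fell to 12.5% of the control level (log2 change -2.997, SE 0.09, n = 3 arrays a group, adjusted p = 1.85e-07 in limma with Benjamini-Hochberg adjustment over all genes). At the dimmer ING2 probe set, 213544_at, the level was 36.5% of control (log2 change -1.45, SE 0.18, limma adjusted p = 0.00472 over all probe sets). Over all genes 1640 passed an adjusted p under 0.05, which is 8.29% of those tested, 716 higher (3.62%) and 924 lower (4.67%). That split was 260 higher and 1450 lower after centring each array on its median, 951 and 623 after quantile normalization. The count depended on single arrays: it was 3 without ING2 siRNA replicate 1, 2 without ING2 siRNA replicate 3, 2 without control replicate 2 and 3 without control replicate 3, against 2577 without ING2 siRNA replicate 2 and 2613 without control replicate 1. The log2 change also followed intensity, with medians from 0.15 in dim bins of genes to -0.09 in the brightest of 10. For RNA integrity, the 3′ control probe set of GAPDH exceeded the 5′ one by 0.316 ± 0.042 on the log2 scale after ING2 siRNA and by 0.205 ± 0.015 in controls (SD, n = 3, exact two-sided permutation p = 0.1, the smallest that 3 against 3 arrays allow). For ACTB the same difference was 0.541 ± 0.096 after ING2 siRNA and 0.490 ± 0.110 in controls (SD, n = 3, exact two-sided permutation p = 0.6). The part of RNA integrity in the AP-1 results was not tested. VIM and 4 other markers of the line were bright on every array (3184 to 16053 units), and the luminal markers ESR1, PGR, GATA3, FOXA1 and CDH1 lay between 9.72 and 270.2 units. Of 5 fibroblast markers, LUM fell (-0.87, limma adjusted p = 0.0205) and DCN rose (0.35, limma adjusted p = 0.0349), while the summed level of the 5 was 797 to 829 units after ING2 siRNA and 761 to 873 in controls. LUM has 2 probe sets, of which 1 passed singly and the other had a log2 change of 0.07. DCN did not pass after median centring (0.0674), quantile normalization (0.0591), cyclic loess (0.0874) or as the mean of its 7 probe sets (0.131), of which 1 passed singly. Of 4 measured blood cell markers 0 passed, with 1 at an unadjusted p under 0.05 in limma.

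The comparison asks which AP-1 transcripts differ when ING2 is depleted. FOSL1 rose and was the only 1 of the 10 genes to pass the threshold when each gene was read from its brightest probe set. ATF2, a partner of JUN and a target of stress kinases, had lower values at its 2 brighter probe sets, and 1 of them passed when probe sets were tested singly. The FOS, JUN, ATF3 and BATF3 genes had smaller values that did not pass. The median log2 change of the 10 genes was 0.09, beside 0.06 over all genes. By gene, 1 of 10 members rose, where 3.62% of all genes did, and 0 fell, where 4.67% did. At an unadjusted p under 0.05 there were 2 of 10 members, FOSL1 and ATF2, beside 32.9% of all genes. The groups did not overlap in 1 of the 10, beside 36.5% of all genes, 22.8% in the higher and 13.8% in the lower direction.

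**Figure D1:**
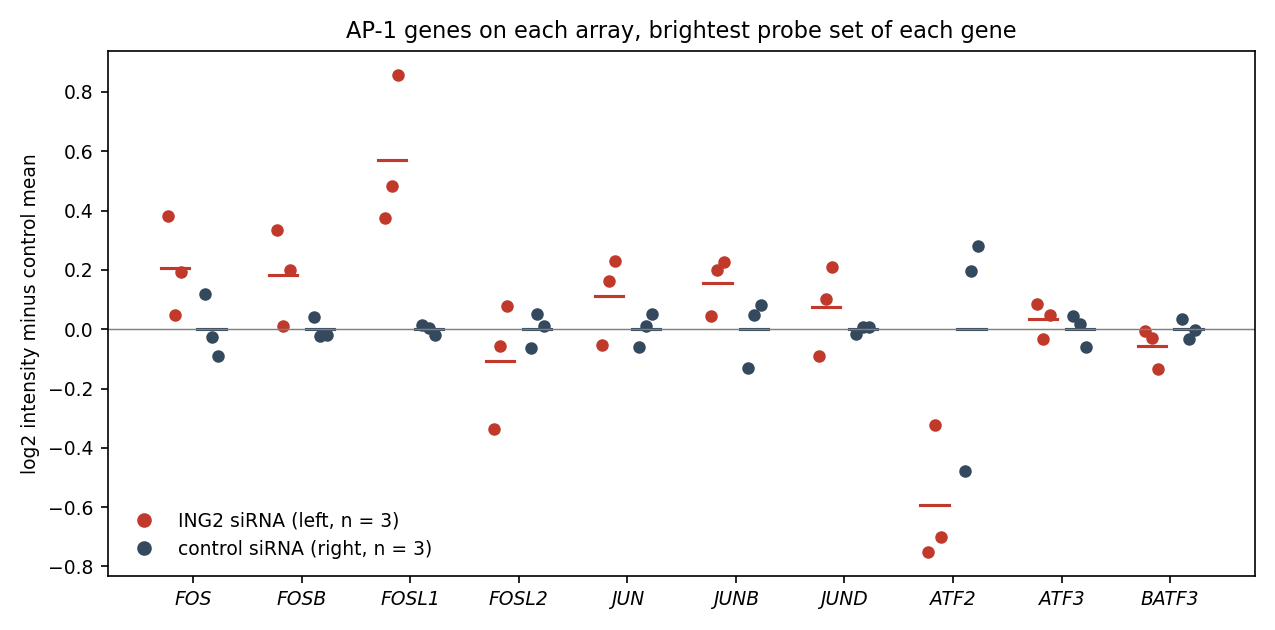
Each point is 1 array, given as log2 intensity of the gene's brightest probe set minus its mean in controls, with ING2 siRNA arrays left and control siRNA arrays right of each gene and a bar at the group mean (n = 3 each). The 3 ING2 siRNA arrays lie above the 3 controls for FOSL1, and ATF2 has the widest spread among controls (SD 0.41).

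FOSL1 has 1 probe set, 204420_at. It read 1369, 1475 and 1915 units after ING2 siRNA, against 1066, 1059 and 1043 units in controls. All 3 ING2 siRNA arrays were higher than every control, and the controls were close together while ING2 siRNA replicate 3 stood well above the other two. The geometric mean was 1570 units after ING2 siRNA and 1056 in controls, 1.49-fold higher (log2 change 0.57, SE 0.12, 95% interval 0.31 to 0.84, n = 3 per group, limma adjusted p = 0.0295). The SD on the log2 scale was 0.25 after ING2 siRNA and 0.02 in controls. RNA was taken from whole cultures, so a change in every cell and a change in the share of cells that express the gene cannot be told apart.

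The gene lay at percentile 85.2 of genes by intensity, in a bin whose median log2 change was -0.09. After cyclic loess, which evens out intensity-dependent differences between arrays, the log2 change of FOSL1 was 0.67 (limma adjusted p = 0.0214). It passed in each of the 9 alternatives that used all 6 arrays. With 1 array left out it ranged from 0.43 (without ING2 siRNA replicate 3, limma adjusted p = 0.117) to 0.67. It no longer passed in 4 of those 6 fits, the others being without ING2 siRNA replicate 1 (0.0624), control replicate 2 (0.0964) and control replicate 3 (0.0939). In each of those 4 fits only 2 or 3 of all 19777 genes passed, so the loss was not particular to FOSL1.

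The other FOS genes encode the transactivating partners FOS and FOSB, which are immediate early genes, and FOSL2, whose protein is FRA-2. FOS read 80.7, 64.1 and 70.9 units after ING2 siRNA, against 67.3, 60.9 and 58.2 units in controls. Its groups overlapped, and the log2 change was 0.21 (95% interval -0.02 to 0.44, limma adjusted p = 0.187). FOSB read 75.3, 60.1 and 68.6 units after ING2 siRNA, against 61.4, 58.8 and 58.9 units in controls, with a log2 change of 0.18 (95% interval -0.03 to 0.40, limma adjusted p = 0.209). FOS and FOSB were dim, at percentiles 30.3 and 29.3 of genes, where bin medians of log2 change were 0.15.

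FOSL2 has 5 probe sets and none passed. Its brightest, 225262_at, read 1231, 1498 and 1642 units after ING2 siRNA, against 1490, 1613 and 1569 units in controls. The ING2 siRNA arrays spanned the whole control range, and the log2 change was -0.11 (95% interval -0.35 to 0.14, limma adjusted p = 0.508; 0.02 after quantile normalization). Of the 5, 4 had values below 0, the lowest being -0.15 at 228188_at, and the dimmer 218881_s_at had 0.14.

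JUN, the partner common to most AP-1 dimers, has 4 probe sets and none passed. Its brightest, 201464_x_at, read 2110, 2451 and 2564 units after ING2 siRNA, against 2100, 2203 and 2265 units in controls. The groups overlapped, with a log2 change of 0.11 (95% interval -0.09 to 0.32, limma adjusted p = 0.408). By the array's naming an _x_at probe set holds oligonucleotides that match other sequences too, so this reading may include other transcripts. The other JUN probe sets had values of 0.11 for 201465_s_at, 0.05 for 201466_s_at and -0.17 for 213281_at.

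The last of these turned on 1 array. JUN probe set 213281_at read 248, 272 and 124 units after ING2 siRNA, against 228, 231 and 227 units in controls. ING2 siRNA replicate 3 was far below the other 5 arrays, while the other JUN probe sets had no such low value there (158 units at 201465_s_at, 530 at 201466_s_at). Without that array its log2 change was 0.18, and the adjusted p did not pass with it (0.659) or without it (0.312) in limma.

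JUNB and JUND encode JUN proteins with weaker activation of many targets in several cell types, and JUND is the more steadily expressed. JUNB read 251, 280 and 284 units after ING2 siRNA, against 222, 252 and 258 units in controls, a log2 change of 0.16 (95% interval -0.05 to 0.36, limma adjusted p = 0.253). JUND has 4 probe sets, and the brightest, 203752_s_at, read 3592, 4102 and 4422 units after ING2 siRNA, against 3785, 3842 and 3845 units in controls (log2 change 0.07, 95% interval -0.13 to 0.28, limma adjusted p = 0.590). Values at all 4 lay above 0, up to 0.19 at 214326_x_at, and none passed. The dimmest, 229117_s_at, had 0.07, which turned to -0.0052 after median centring, -0.015 after quantile normalization and -0.045 after cyclic loess.

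**Figure D2:**
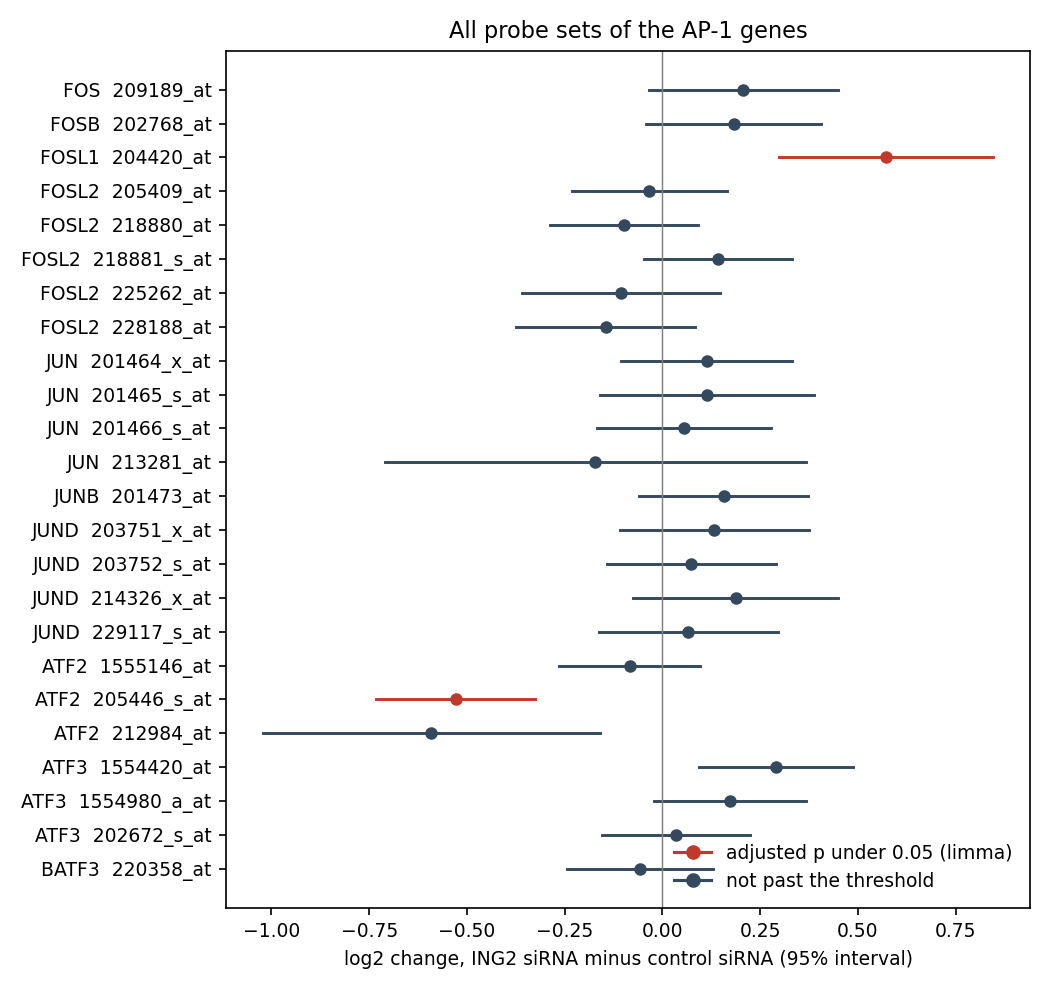
Each row is 1 of the 24 probe sets with its log2 change, ING2 siRNA minus control siRNA, and 95% interval from limma. FOSL1 204420_at (0.57) and ATF2 205446_s_at (-0.53) passed an adjusted p under 0.05 over all probe sets.

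Tested singly over 54613 probe sets, 5.28% of all probe sets passed, 1.64% higher and 3.64% lower. Of the 24 AP-1 probe sets 1 rose and 1 fell. The groups did not overlap in 6 of the 24, beside 32.8% of all probe sets. These 6 were the FOSL1 probe set, 218881_s_at of FOSL2, 205446_s_at and 1555146_at of ATF2, and 1554420_at and 1554980_a_at of ATF3.

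ATF2 has 3 probe sets. At 205446_s_at it read 166, 151 and 158 units after ING2 siRNA, against 216, 247 and 224 units in controls. Every ING2 siRNA array was lower than every control, and ATF2 fell to 69.3% of control there (log2 change -0.53, SE 0.09, 95% interval -0.73 to -0.33, n = 3 per group, limma adjusted p = 0.0168 over all probe sets). It passed in each of the 7 alternatives run on probe sets with all 6 arrays, and in 3 of the 6 fits with 1 array left out, where it ranged from -0.57 to -0.47. The 3 in which it did not pass were without ING2 siRNA replicate 3 (0.0825), control replicate 2 (0.0724) and control replicate 3 (0.0640).

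The brightest ATF2 probe set, 212984_at, stands for the gene in the test over genes. It read 571, 768 and 591 units after ING2 siRNA, against 690, 1101 and 1167 units in controls. Control replicate 1 lay below ING2 siRNA replicate 2, so the groups overlapped by those arrays. The log2 change was -0.59 (SE 0.19, 95% interval -1.01 to -0.17), close to that at 205446_s_at, but with SDs of 0.23 after ING2 siRNA and 0.41 in controls it did not pass (limma adjusted p = 0.0686 over genes). Without control replicate 1 it was -0.83 and passed (limma adjusted p = 0.0125). It also passed without ING2 siRNA replicate 2 (-0.73, limma adjusted p = 0.0368), as the mean of the gene's 3 probe sets (-0.40, limma adjusted p = 0.0222) and with the replicate number as a block (-0.59, limma adjusted p = 0.0190). The third, 1555146_at, read 7.73 to 8.06 units after ING2 siRNA and 8.17 to 8.47 in controls, near the lowest value of any probe set, 4.05 units.

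**Figure D3:**
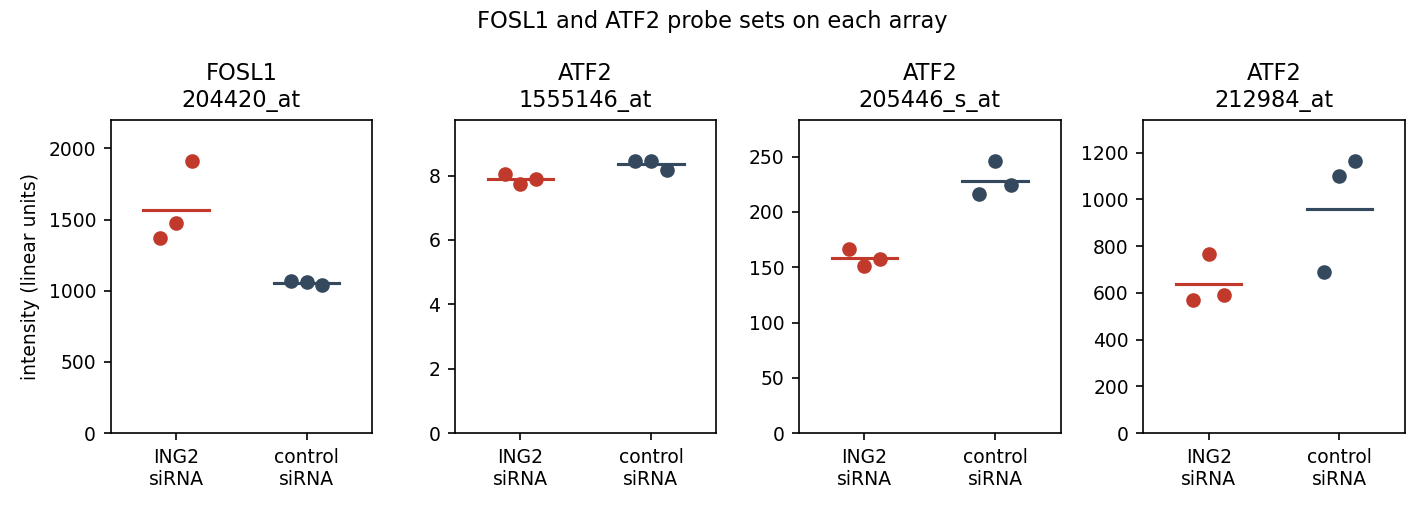
Points are the linear intensity on each array and bars the geometric mean of each group (n = 3), with ING2 siRNA left and control siRNA right, and each panel has its own axis from 0. FOSL1 is higher on all ING2 siRNA arrays, ATF2 205446_s_at is lower on all of them, and at ATF2 212984_at control replicate 1 lies among the ING2 siRNA arrays.

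ATF3 is a stress-induced bZIP protein that represses or activates with its partner, and BATF3 is a short family member without an activation domain, best known from dendritic cells. For ATF3 the brightest probe set, 202672_s_at, read 187, 172 and 182 units after ING2 siRNA, against 181, 178 and 168 units in controls (log2 change 0.03, 95% interval -0.14 to 0.21, limma adjusted p = 0.784; -0.04 after median centring). The dimmest, 1554420_at, read 57.4, 53.0 and 54.9 units after ING2 siRNA, against 48.2, 43.6 and 43.4 units in controls. Its groups did not overlap, and its log2 change of 0.29 did not pass over all probe sets (limma adjusted p = 0.0785). This probe set passed in 1 of 12 alternatives, and in 0 of the 6 fits with 1 array left out. The remaining ATF3 probe set, 1554980_a_at, had 0.17 (limma adjusted p = 0.223), again with groups that did not overlap.

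BATF3 read 366, 360 and 335 units after ING2 siRNA, against 376, 360 and 367 units in controls. The log2 change was -0.06 (95% interval -0.23 to 0.12, limma adjusted p = 0.624; 0.03 after quantile normalization). The groups overlapped. For the 8 genes other than FOSL1 and ATF2 the 95% intervals at the brightest probe sets all lay within -0.35 and 0.44. Over all probe sets of these genes they reached -0.71 (JUN 213281_at) and 0.49 (ATF3 1554420_at). The interval at ATF3 1554420_at, 0.09 to 0.49, lay above 0.

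Genes that act with AP-1 were taken from 5 lists, and a list gene is measured where a probe set names it alone. List counts read each gene from its brightest probe set. The first holds other bZIP proteins that dimerise with AP-1 members or share their sites, 27 of 30 measured. Of these, 1 rose and 2 fell, beside 3.62% and 4.67% of all genes, with a median of 0.00. CREB1, which binds cyclic AMP response elements and is a relative of ATF2, fell. It read 613, 651 and 590 units after ING2 siRNA, against 760, 856 and 844 units in controls. Its log2 change was -0.41 (SE 0.09, limma adjusted p = 0.0301), all 7 of its probe sets had values below 0, and 3 of them passed. Read from its most variable probe set, CREB1 had -0.46 and did not pass (limma adjusted p = 0.124).

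NFE2L3, a relative of the antioxidant regulator NRF2, fell, with a log2 change of -0.44 (SE 0.11, limma adjusted p = 0.0448), but did not pass after quantile normalization (0.0635), after cyclic loess (0.0654), as the mean of its 2 probe sets (0.0549) or when read from the more variable of them (0.0924). CEBPA, a differentiation factor, rose by 0.31 from low intensity (SE 0.08, limma adjusted p = 0.0466), and did not pass after median centring (0.0918), quantile normalization (0.0933) or cyclic loess (0.143). The other 24 bZIP genes did not pass. Among them JDP2 (1 of 2) and ATF6 (1 of 4) had a probe set that passed when tested singly over all probe sets. The highest value of JDP2 was 0.48 and the lowest of ATF6 -0.62.

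The second list holds the MAP kinases above AP-1 and the serum response factors that drive FOS, 20 of 27 measured. Here 0 rose, 1 fell and 19 did not pass, beside 3.62% of all genes that rose and 4.67% that fell, with a median of -0.05. At an unadjusted p under 0.05 in limma there were 7 of 20, or 35%, beside 32.9% of all genes. ELK3, a ternary complex factor that represses serum response genes such as FOS until it is phosphorylated, fell. It read 953, 1220 and 1186 units after ING2 siRNA, against 1426, 1957 and 2309 units in controls, with a log2 change of -0.74 (SE 0.16, limma adjusted p = 0.0324). All ING2 siRNA arrays were lower than every control, while the other ELK3 probe set had a value of 0.01. The JUN kinase genes MAPK8 (-0.11) and MAPK9 (-0.13) and the serum response factor gene SRF (0.09) did not pass and are named after their values were seen. Some genes that did not pass had other probe sets that passed singly over all probe sets. These were MAP3K7 (2 of 4), MAP3K1 (1 of 2), ELK1 (1 of 3), ELK4 (1 of 7) and MEF2A (1 of 4). The lowest value was -0.46 in MAP3K7 and -0.74 in MAP3K1, and the highest in ELK1 was 0.47.

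The third list holds genes for the turnover and cofactors of JUN and FOS proteins, 14 of 17 measured. It had 1 rise and 1 fall, beside 3.62% and 4.67% of all genes, with a median of -0.08. CUL4B did not pass by gene, but 3 of its 4 probe sets passed singly, and all 4 had values below 0 (lowest -0.59). ITCH (1 of 6), USP28 (1 of 3) and CREBBP (1 of 4) also had a probe set that passed singly. COPS5, the COP9 signalosome subunit first described as the JUN activation domain-binding protein JAB1, read 1695, 1912 and 1718 units after ING2 siRNA, against 2233, 2360 and 2491 units in controls. It fell, with a log2 change of -0.41 (SE 0.09, limma adjusted p = 0.0300) and no pass after quantile normalization (0.0585) or cyclic loess (0.0514).

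TRIB1, a pseudokinase that directs the ubiquitin ligase COP1 to its substrates, rose. It read 381, 413 and 402 units after ING2 siRNA, against 297, 306 and 275 units in controls (log2 change 0.45, SE 0.08, limma adjusted p = 0.0243). The groups did not overlap, and it passed under median centring, quantile normalization and cyclic loess. Of its 3 probe sets this was the only 1 to pass, and the lowest value was 0.00.

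The fourth list holds well-known AP-1 target genes, 25 of 27 measured. Of these 2 rose and 1 fell, beside 3.62% and 4.67% of all genes, with a median of 0.07 beside 0.06 over all genes. At an unadjusted p under 0.05 in limma there were 12 of 25, or 48%, beside 32.9% of all genes. The rises were in the matrix metalloproteinases MMP10 (0.48, SE 0.10, limma adjusted p = 0.0295) and MMP13 (0.46, SE 0.10, limma adjusted p = 0.0295). MMP10 read 18.7, 18.2 and 15.6 units after ING2 siRNA, against 13.6, 11.7 and 12.3 units in controls. MMP13 read 38.4, 38.9 and 43.5 units after ING2 siRNA, against 31.9, 29.5 and 26.4 units in controls. Both were dim, at percentiles 7.07 and 17.4 of genes, and MMP13 lost its call after cyclic loess (0.34, limma adjusted p = 0.0622).

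The chemokine gene CCL2 fell, with a log2 change of -0.44 (SE 0.11, limma adjusted p = 0.0413). It read 233, 241 and 197 units after ING2 siRNA, against 268, 326 and 313 units in controls, and it passed under the 3 other scalings. Bright targets that did not pass, named after their values were seen, include the urokinase receptor gene PLAUR (0.27, limma adjusted p = 0.0797) and the chromatin protein gene HMGA1 (0.24, limma adjusted p = 0.122), whose groups did not overlap, and the urokinase gene PLAU (-0.04) and the cyclin gene CCND1 (0.06), whose groups did. The chemokine gene CXCL8 had -0.10 at its brightest probe set, which did not pass, while its other probe set had -0.86 and passed when probe sets were tested singly.

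The fifth list holds immediate early genes outside AP-1, which serum and stress induce along with FOS and JUN, 18 of 20 measured. Of these 1 rose and 0 fell, beside 3.62% and 4.67% of all genes, with a median of 0.03. DUSP1 did not pass by gene (-0.09), but 1 of its 3 probe sets passed singly, and its highest value was 0.50. An unadjusted p under 0.05 in limma was found for 7 of 18, or 38.9%, beside 32.9% of all genes. IER2 read 2226, 2235 and 2453 units after ING2 siRNA, against 2012, 1717 and 1694 units in controls (log2 change 0.35, SE 0.09, limma adjusted p = 0.0480), and did not pass after median centring (0.0804). EGR1 (0.19), IER3 (0.03) and MYC (0.06), named after their values were seen, did not pass. Larger values that did not pass in limma were found in both directions. They were IER5 (-0.35, adjusted p = 0.0530), KLF10 (-0.43, 0.0773), NR4A1 (0.34, 0.0722) and ZFP36 (0.32, 0.0531), also named after their values were seen. In the fits that each left out 1 array, every list gene named here as having passed did so in only 1 or 2 of 6. Without ING2 siRNA replicate 1 or 3, or control replicate 2 or 3, only 2 or 3 of all 19777 genes passed. Those fits therefore cannot tell these genes from others. CEBPA and IER2 each passed in 1 of 6. Each therefore also missed the threshold in a fit where many genes passed, without ING2 siRNA replicate 2 or without control replicate 1. NFE2L3, CEBPA, CCL2 and IER2 passed over genes, and none of their probe sets passed when tested singly over all probe sets.

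**Figure D4:**
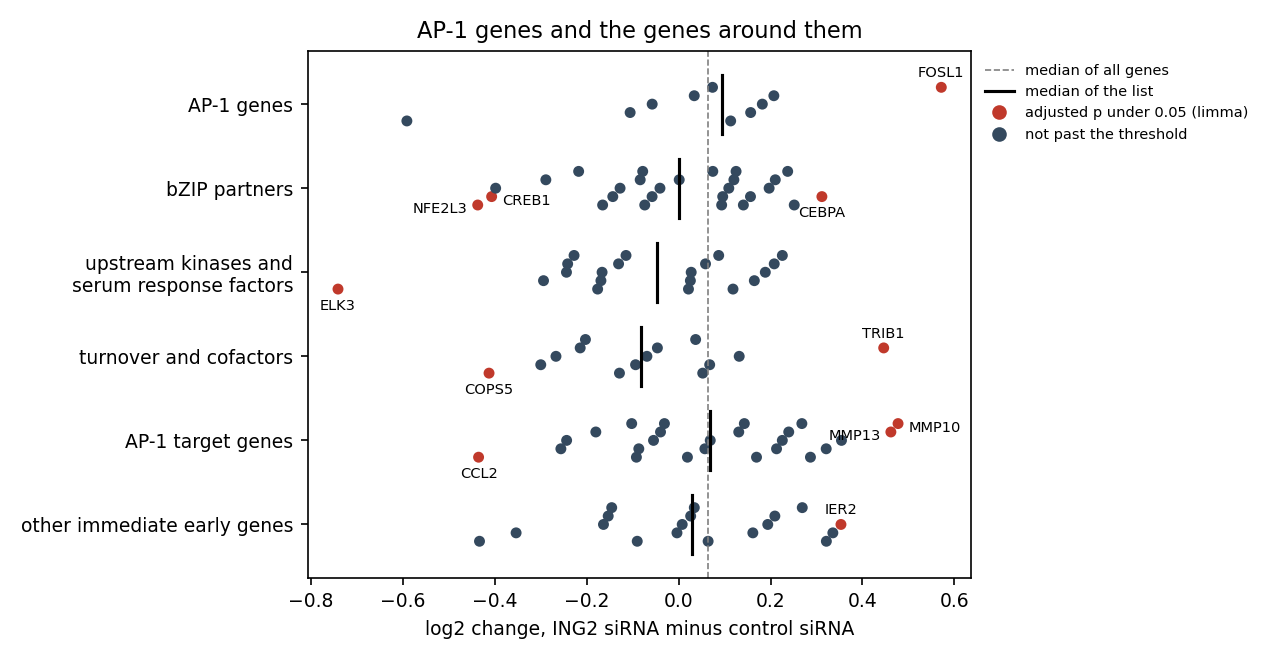
Each point is 1 gene's log2 change, ING2 siRNA minus control siRNA, in the AP-1 genes and the 5 lists, with the median of the list as a black bar and the median of all genes (0.06) as a dashed line. Genes past the limma threshold are named, and the list medians lie between -0.08 and 0.09.

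In the test by gene FOSL1 had the smallest p of the members, so the genes most like it across the 6 arrays were sought among the 9887 other genes above the median intensity, by the root mean square difference of centred log2 values. The closest was ZYX, a focal adhesion protein (0.06), then ITGA5, the fibronectin receptor subunit (0.06), then the selenoprotein gene SELENON (0.07). ZYX read 422, 510 and 645 units after ING2 siRNA, against 361, 345 and 335 units in controls. Its probe set is 215706_x_at, so this reading too may include other transcripts. ITGA5 read 892, 920 and 1126 units after ING2 siRNA, against 714, 671 and 688 units in controls. In these genes, as in FOSL1, ING2 siRNA replicate 3 was the highest array and the controls lay close together, which follows from how they were chosen. The arrays share their preparation and this likeness is a description with no test.

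**Figure D5:**
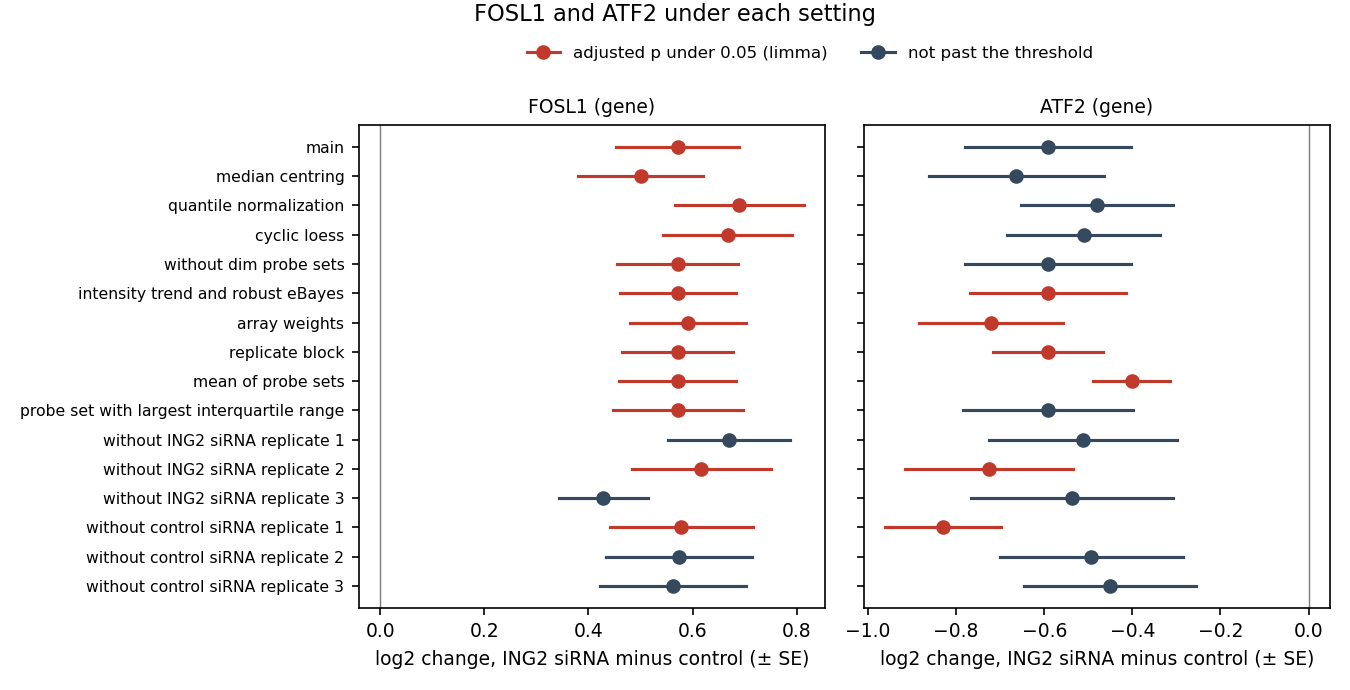
Points are the log2 change, ING2 siRNA minus control, with its SE under the main setting and 15 alternatives, for FOSL1 (left) and ATF2 (right), in red where the limma adjusted p was under 0.05. FOSL1 lies between 0.43 and 0.69 and ATF2 between -0.83 and -0.40, and leaving out single arrays moves either across the threshold. Without ING2 siRNA replicate 1 or 3, or control replicate 2 or 3, only 2 or 3 of all genes passed.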

How the data were processed

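The authors deposited 1 linear intensity value per probe set and array, from 4.05 to 33803. The submitters' processing notes name RMA and R 2.12. How linear values were made, the background correction and the build are not given in the sources used, and precision is limited by the number of arrays. Probe sets were named through a 2016 platform annotation, with symbols updated by gene identifier. Log2 was taken with no pseudocount or filter, and 62 control probe sets were left out. Groups were compared with limma 3.58.1 (lmFit, eBayes) in R 4.3.3, without covariates, over 19777 genes (probe set of highest mean each) and over 54613 probe sets, at a Benjamini-Hochberg adjusted p under 0.05. The method was tested on simulated data with independent noise for each gene and array. Such data lack differences that arrays share across genes, so the simulation does not cover them.

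The members and lists were chosen with earlier results of these data known. The rule names each member and, in each list, up to 3 rises and 3 falls past the threshold, plus the 3 genes most like the member of smallest p. Alternatives covered scaling, dim probe sets (below percentile 40), variance model, array weights, probe set choice, replicate number as a block and leaving out each array. They were run on the named list genes, LUM and DCN as an addition made after seeing the data. Same-numbered arrays had correlations of 0.26, 0.29 and -0.02 between their deviations from group means, and unlike-numbered arrays had -0.31 to 0.10. The labels name no pairing, so the main setting used none. Whether the numbers mark pairs was not tested.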

Additional observations from a re-analysis of the deposited data

How the results depend on the processing

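FOSL1 stayed above 0 and ATF2 below 0 in all 15 alternatives. The count of AP-1 genes past the threshold was 1 in the main setting and 2, FOSL1 and ATF2, with an intensity trend and robust eBayes, with array weights, with the replicate block and with the mean of probe sets. It ranged from 0 to 2 with 1 array left out. The count of AP-1 probe sets was 2 in the main setting, 4 with array weights and from 0 to 3 with 1 array left out. With the replicate block it was 3. Over all genes the count was 1640 in the main setting, 3858 with array weights, 3508 with the replicate block, 2620 with the mean of probe sets, 3260 when each gene was read from its most variable probe set by interquartile range, and from 2 to 2613 with 1 array left out. The causes of these shifts were not tested. ING2 passed in all 15.

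Values that changed sign were small except at JUN 213281_at (-0.17 in the main setting), and none had passed. After median centring they were -0.038 for ATF3 (202672_s_at), -0.017 for 201466_s_at and -0.0052 for 229117_s_at. After quantile normalization they were 0.017 for FOSL2 (225262_at), 0.031 for BATF3 (220358_at) and -0.015 for 229117_s_at, and after cyclic loess -0.045 for 229117_s_at. With 1 array left out, FOSL2 (225262_at) ranged from -0.20 to 0.011, 205409_at from -0.080 to 0.014, 229117_s_at from -0.020 to 0.15 and 213281_at from -0.38 to 0.18. MMP10 and MMP13 were not measured once dim probe sets were left out.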
